A study of Mus musculus with 28 samples.

Results

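Fatty acid and glycerolipid synthesis was followed through 39 genes, named as a fixed list of enzymes and regulators, in the peripheral nerve of the developing mouse. All 39 were found in the deposited table of 41605 genes, and all 39 passed the filter on low counts that left 17700 genes for testing. They comprised 3 regulators (Srebf1, Mlxipl, Thrsp), 3 genes of carbon and NADPH supply (Slc25a1, Acly, Me1), the 2 acetyl-CoA carboxylases and the synthase (Acaca, Acacb, Fasn), 5 desaturases (Scd1, Scd2, Fads1, Fads2, Fads3), 6 elongases (Elovl1, Elovl2, Elovl4, Elovl5, Elovl6, Elovl7), 5 further enzymes of the elongation cycle (Hsd17b12, Hacd1, Hacd2, Hacd3, Tecr), 6 acyl-CoA synthetases (Acsl1, Acsl3, Acsl4, Acsl5, Acsl6, Acsbg1) and 8 enzymes of glycerolipid assembly (Gpam, Agpat1, Agpat2, Lpin1, Lpin2, Lpin3, Dgat1, Dgat2). The list is one of gene names and uses no threshold on measured values.

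The data were bulk mRNA sequencing libraries of wild-type C57BL/6J nerves from 7 stages, namely E13 and E17 (E for embryonic day), and P1, P5, P14, P24 and P60 (P for postnatal day, P60 being adult), with 4 libraries at each and 28 in all. E13 and E17 are names from the sample labels, and the paper dates both stages a fraction of a day later. Per the methods, each stage had 2 libraries from male and 2 from female mice. No mouse was perfused, and no stage carried a transgene or a treatment. Each E13 library was made from various nerves distal to the dorsal root ganglia pooled from 2 embryos and was not stripped of its outer layers, each E17 library from sciatic nerves pooled from 2 embryos, and each postnatal library from the sciatic nerves of 1 mouse. Epineurium and perineurium were stripped by hand from E17 on. The step from E13 to E17 therefore combines age with the choice of nerves and the dissection, which cannot be told apart. Library totals ran from 13899895 to 37662780 counts. Markers of neuronal cell bodies summed to 672 to 1502 CPM (counts scaled to a common total with TMM scaling) at E13 and to 12.5 to 18.3 CPM at E17. Most of the E13 sum was Tubb3, at 370 to 1380 CPM. Tubb3 and Rbfox3 were lowest in E13 replicate 1, where Snap25, Slc17a6 and Syt1 were highest. Schwann cell markers, which define the labelled nerve tissue, summed to 336 to 692 CPM at E13 and to 58245 to 73753 CPM at P14. Most of that sum was Mbp, a myelin gene, at 43959 to 57223 CPM, while other markers of the list ran differently, such as Erbb3 with 904 to 939 CPM at P1 and 506 to 589.9 CPM at P14, and S100b with 623 to 714 CPM at P14 and 932 to 1064 CPM at P60. In such bulk samples a higher or lower level cannot be divided into more or fewer cells of a type and more or less RNA per cell.

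As background, cytosolic fatty acid synthesis begins with citrate, which the carrier Slc25a1 exports from mitochondria and Acly cleaves to acetyl-CoA. Acaca and Acacb make malonyl-CoA from it, and Fasn condenses malonyl units into palmitate with NADPH that Me1 helps to supply. Palmitate is then activated by acyl-CoA synthetases. As acyl-CoA it is lengthened by the Elovl enzymes with Hsd17b12, Hacd and Tecr partners and desaturated by Scd and Fads enzymes. Gpam, Agpat, lipin and Dgat enzymes build the chains into glycerolipids. Myelin is a membrane very rich in lipid, and Schwann cells that build it make much of its long-chain and very-long-chain acyl content themselves. Srebf1, which encodes SREBP1, and Mlxipl, which encodes ChREBP, are transcription factors that switch on lipogenic genes, and Thrsp is a lipogenic cofactor abundant in fat tissue.

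The 39 genes together held 0.354, 0.394, 0.394 and 0.434% of the counts in the 4 E13 libraries. At E17 they held 0.588, 0.631, 0.602 and 0.597%, at P1 0.690, 0.686, 0.675 and 0.741% and at P5 1.19, 1.18, 1.14 and 1.25%. The share was highest at P14, with 1.53, 1.57, 1.56 and 1.53%, and at P24, with 1.54, 1.61, 1.63 and 1.67%, and it fell back at P60 to 1.18, 1.20, 1.13 and 1.05%. The libraries of P14 and P24 lay above all libraries of every other stage, and those 2 stages overlapped each other. Scd2, which introduces a double bond at the Δ9 position of palmitoyl- and stearoyl-CoA, supplied much of this. Per kilobase of annotated exon, Scd2 was the most abundant member at every stage shown here, at 151 CPM per kb at E13, 460.5 at E17, 1902 at P14 and 1067 at P60. At P14 it was followed on that scale by Scd1 at 345, Elovl1 at 308, Elovl6 at 195 and Tecr at 159.5 CPM per kb. The lowest levels per kilobase at P14 were those of Elovl2 at 0.0878, Acsl6 at 0.145 and Mlxipl at 0.208 CPM per kb.

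**Figure D1:**
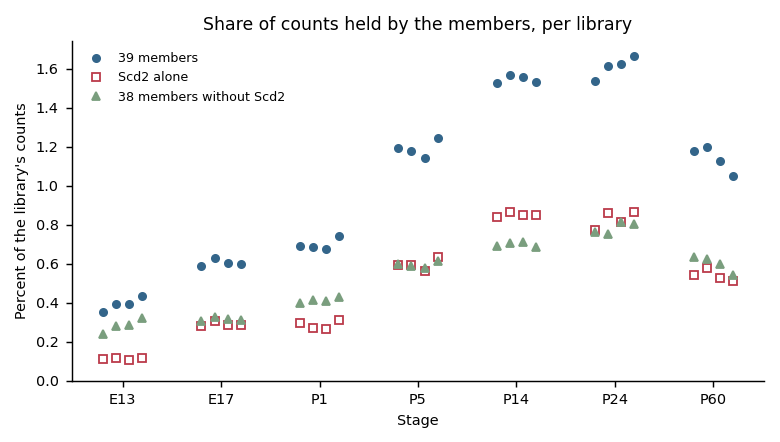
Percent of each library's counts held by the 39 members, by Scd2 alone and by the other 38, with 1 point per library and stages on the horizontal axis. The 4 P14 libraries lie between 1.53 and 1.57% and the 4 P60 libraries between 1.05 and 1.20%.

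Across the whole timeline 38 of the 39 members (97.4%) changed at an adjusted p under 0.05 in edgeR's quasi-likelihood test of all stage terms, against 88.8% of all genes tested. The exception was Acsl4, a synthetase that prefers polyunsaturated chains, with an adjusted p of 0.216. The stage of the highest mean level was P24 for 12 members, P60 for 12, P14 for 7, E13 for 4, E17 for 2 and P1 for 2, and P5 for none. The shares of all genes tested with their highest mean at these stages, in order of age, were 32.4%, 16.2%, 11.1%, 4.98%, 6.34%, 7.99% and 21.0%. The heat map by role shows these profiles side by side.

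**Figure D2:**
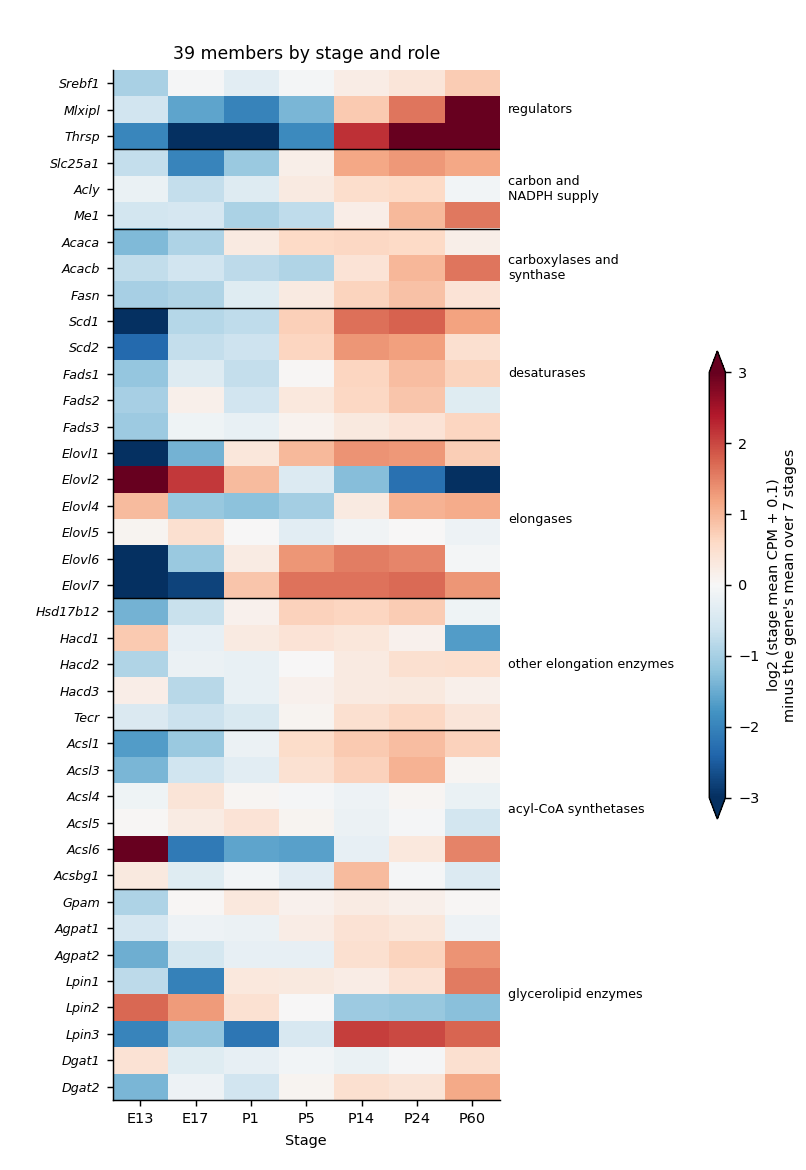
Mean level of each of the 39 members at the 7 stages (columns), as log2 of the stage mean CPM plus 0.1 minus the gene's own mean over the stages, grouped by role, with colours that stop at 3 in either direction. Most members of the supply, synthase, desaturase and elongation groups are above their own mean from P5 or P14 on, while Elovl2 and Lpin2 decline from E13.

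RefSeq start sites on GRCm38.p6 were available for 34 of the 39 members, as windows of 300 bases that reach from 250 bases before a start to 50 after it, in all 48 windows with up to 3 per gene. Scd1, Scd2, Fads1, Dgat1 and Dgat2 had no window in the table. Each window was searched on both strands for 3 letter strings, TCACNCCAC (the core of a sterol regulatory element), CACGTG (an E-box) and CCAAT (the NF-Y box). The string CCAAT or its reverse complement was present for 23 of 34 members (67.6%) and for 42.3% of 17492 protein-coding genes with a window. CACGTG was present for 7 of 34 (20.6%) against 8.91%, and TCACNCCAC for 2 of 34 (5.88%), Acsl1 and Mlxipl, against 1.41%. These shares are descriptions, and genes differ in the number of their windows. The 5 windows below belong to the synthase, the citrate carrier, 2 elongases that rose at both steps from E13 to P1, and the regulator with all 3 strings, and capitals mark the matches on either strand, in gene orientation.
Fasn, chr11:120824498-120824797, minus strand: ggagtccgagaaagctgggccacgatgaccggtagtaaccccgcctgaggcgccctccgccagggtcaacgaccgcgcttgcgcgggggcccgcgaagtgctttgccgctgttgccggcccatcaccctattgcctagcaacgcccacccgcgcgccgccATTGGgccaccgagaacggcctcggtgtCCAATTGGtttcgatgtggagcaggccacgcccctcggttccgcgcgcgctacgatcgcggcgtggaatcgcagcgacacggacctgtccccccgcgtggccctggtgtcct
Slc25a1, chr16:17928170-17928469, minus strand: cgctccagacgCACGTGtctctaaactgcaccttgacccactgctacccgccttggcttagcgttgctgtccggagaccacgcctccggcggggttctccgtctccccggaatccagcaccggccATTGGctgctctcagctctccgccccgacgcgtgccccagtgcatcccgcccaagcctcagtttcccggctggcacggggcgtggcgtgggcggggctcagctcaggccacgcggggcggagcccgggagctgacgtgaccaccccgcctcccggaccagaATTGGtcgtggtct
Elovl1, chr4:118427843-118428142, plus strand: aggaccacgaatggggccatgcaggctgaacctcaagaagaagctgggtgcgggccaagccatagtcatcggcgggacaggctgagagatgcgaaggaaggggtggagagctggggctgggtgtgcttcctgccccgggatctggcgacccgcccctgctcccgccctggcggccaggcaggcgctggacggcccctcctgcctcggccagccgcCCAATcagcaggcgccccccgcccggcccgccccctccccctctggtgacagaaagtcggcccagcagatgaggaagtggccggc
Elovl6, chr3:129532136-129532435, plus strand: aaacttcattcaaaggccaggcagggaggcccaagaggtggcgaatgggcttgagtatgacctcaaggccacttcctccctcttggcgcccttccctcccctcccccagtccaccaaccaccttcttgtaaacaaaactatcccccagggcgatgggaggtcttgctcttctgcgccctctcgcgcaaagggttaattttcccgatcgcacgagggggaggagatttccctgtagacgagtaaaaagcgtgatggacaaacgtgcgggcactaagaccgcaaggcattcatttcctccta
Mlxipl, chr5:135106641-135106940, plus strand: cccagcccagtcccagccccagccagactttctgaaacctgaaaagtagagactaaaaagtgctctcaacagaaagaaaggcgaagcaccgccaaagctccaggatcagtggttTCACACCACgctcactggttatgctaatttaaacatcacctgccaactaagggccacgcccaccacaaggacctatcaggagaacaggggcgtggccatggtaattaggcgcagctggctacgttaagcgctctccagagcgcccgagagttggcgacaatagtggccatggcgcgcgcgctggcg
Fasn held 3 CCAAT matches, of which those at 62 and 59 bases before the start overlap on opposite strands. Slc25a1 held 2 CCAAT matches and 1 CACGTG, and Elovl1 held 1 CCAAT match 35 bases before its start. The Mlxipl window shown holds the TCACNCCAC match, while its other start site holds 1 CACGTG and 1 CCAAT. No match was found in the Elovl6 window, which says only that these letters are not there.

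Between E13 and E17, 8 members were called higher and 8 lower. A gene was called in a comparison when its adjusted p was under 0.05 in the edgeR test over all genes and its fold change at least 2, which held for 14.2% of all genes in the higher and 21.2% in the lower direction here. The median log2 change of the members was 0.40, against -0.08 over all genes. Of the 8 rises, 3 were of desaturases, 3 of elongases and 2 of glycerolipid enzymes. In the same step 6 of 7 Schwann cell markers (median log2 change 1.95), 2 of 3 perineurial markers (2.31) and 2 of 3 endothelial markers (1.04) were called higher, and their part in these rises was not tested. Scd1 rose most among members of at least 10 CPM, from 42.9, 42.6, 33.6 and 40.7 CPM in the 4 E13 libraries to 289.8, 317, 294 and 297 CPM at E17, a log2 change of 2.91 ± 0.13 (SE; adjusted p = 2.6e-16). Elovl6, which takes C16 chains to C18, held 69.2, 37.8, 31.1 and 27.6 CPM at E13 and 201, 205, 201 and 199 CPM at E17 (log2 change 2.28 ± 0.18, adjusted p = 2.71e-11). In both genes the stages did not overlap, and the E17 libraries were much closer together than the E13 libraries of Elovl6. Elovl1, an elongase of saturated very-long chains, rose by 1.85, Scd2 by 1.61, Elovl7 by 1.56, Dgat2 by 1.23 and Fads2, the Δ6 desaturase of polyunsaturated chains, by 1.16 on the log2 scale.

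The falls were led by Acsl6, a synthetase known from brain, with 38.3, 22.98, 21.7 and 15.2 CPM at E13 and 0.220, 0.0528, 0.621 and 0.377 CPM at E17 (log2 change -6.18 ± 0.52, adjusted p = 6.74e-11). Elovl2, which lengthens polyunsaturated C20 and C22 chains, fell from 21.8 ± 3.55 CPM (SD, n = 4, as for all means here) to 4.67 ± 0.666 CPM, and Elovl4, an elongase of ultra-long chains, from 21.3 ± 6.38 to 4.98 ± 0.240 CPM. Lpin1, Slc25a1, Hacd1, Hacd3 and Mlxipl were also called lower, by log2 changes of -1.28, -1.25, -1.02, -1.03 and -1.44. The neuronal markers given above were high at E13 alone. Over the same step 4 of 4 macrophage markers were called lower, summing to 291 to 369 CPM at E13 and 75.5 to 83.7 CPM at E17, as were 4 of 4 red blood cell markers (604 to 6403 and 339.6 to 965 CPM) and 3 of 4 skeletal muscle markers (12.7 to 259 and 5.12 to 22.1 CPM). The remaining muscle marker tested, Ckm, was called higher, with 0 to 0.404 CPM at E13 and 0.660 to 1.65 CPM at E17. The part of these cells in the falls was not tested. Single libraries decided some calls: without E13 replicate 1 the changes of Fads2 (0.94), Dgat2 (0.98) and Hacd3 (-0.90) were short of 2-fold, without E13 replicate 4 that of Slc25a1 (-0.94), and without either that of Hacd1 (-0.96 and -0.91). Lpin3 was called higher and Mlxipl lower with stage means under 1 CPM and overlapping libraries, and either call was lost on leaving out most single libraries of E13 or E17. E13 replicates 1 and 4 and P1 replicate 1 were taken as having deviations related to GC content, for which no value is given here. Without these libraries Hacd1 (-0.71) and Hacd3 (-0.82) were no longer called.

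Between E17 and P1, the days around birth, 5 members were called higher (6.31% of all genes) and 2 lower (5.41%), with a median log2 change of 0.15 against 0.00044 over all genes. Elovl7, an elongase of saturated and polyunsaturated very-long chains, showed the largest rise. It held 9.51, 12.5, 11.9 and 15.5 CPM at E17 and 177, 153, 132 and 143 CPM at P1, so that the lowest P1 library was far above the highest E17 library (log2 change 3.62 ± 0.20, adjusted p = 5.82e-14). Lpin1, a phosphatidate phosphatase that makes diacylglycerol and also acts as a transcriptional coregulator, held 8.58, 6.34, 6.60 and 6.97 CPM at E17 and 31.97, 41.7, 39.2 and 33.5 CPM at P1 (log2 change 2.36 ± 0.14, adjusted p = 1.65e-13). Its earlier fall from E13 was thus followed by a rise above the E13 level, and all 4 P1 libraries lay above all 4 E13 libraries. Elovl1 rose from 125, 123, 128 and 121 to 374, 435, 403 and 456 CPM (log2 change 1.74 ± 0.13, adjusted p = 1.6e-11). Elovl6 rose by 1.35. Acaca, the carboxylase of cytosolic synthesis, rose from 104, 104, 102 and 104 to 254, 235, 231 and 232 CPM (log2 change 1.20 ± 0.09, adjusted p = 7.87e-11). The markers called higher over this step were 4 of 7 of Schwann cells (median log2 change 1.40). Those called lower included 4 of 4 of skeletal muscle (-3.05) and 4 of 4 of red blood cells (-2.30). The part of these cells in the changes was not tested. Lpin3 and Elovl2 were called lower, both with stage means under 5 CPM. The call of Lpin3 was lost without E17 replicate 2 or 3 or P1 replicate 1, 2 or 3 (-0.85 to -1.20), with limma-voom (-0.99), without the low-count filter (-1.15) and in a fit of the compared stages only (-1.17). Scd1 and Scd2, which had risen before and rose again after, had libraries of 289.8 to 317 and 2398 to 2662 CPM at E17 and of 277 to 338 and 2489 to 2987 CPM at P1.

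Between P1 and P5, 5 members were called higher (4.05% of all genes) and 1 lower (1.79%), and the median log2 change was 0.34 against 0.00. Both Δ9 desaturases rose, Scd1 from 329.9, 338, 277 and 330.3 to 863, 883, 810.4 and 981 CPM (log2 change 1.47 ± 0.12, adjusted p = 1.15e-09) and Scd2 from 2696 ± 211 to 6458 ± 368 CPM (log2 change 1.26 ± 0.09). Slc25a1 rose from 48.3 ± 6.03 to 117 ± 8.501 CPM and Elovl6 from 515 ± 49.3 to 1083 ± 109 CPM, though without TMM scaling Elovl6 was short of 2-fold (0.87). Lpin3 rose from 0.285 ± 0.214 to 1.13 ± 0.146 CPM, and Elovl2 was the member called lower. Among markers, 3 of 7 of Schwann cells (median log2 change 0.85) and 2 of 4 of macrophages (1.09) were called higher. So were 2 of 3 brown (1.59) and 2 of 8 white adipocyte markers (4.08), while 1 of 5 neuronal markers was called lower. The part of these cells in the changes was not tested. One P1 library, replicate 1, stood below the other 3 in several members, among them Fasn at 273 against 473, 533 and 572 CPM, Srebf1 at 26.6 against 47.5, 66.03 and 64.4 CPM, and Agpat1 at 42.03 against 81.996, 84.7 and 87.3 CPM. Without that library and the 2 E13 libraries left out with it above, 6 members were called between P1 and P5. Lpin3 was then no longer called between E17 and P1 (-0.85).

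Between P5 and P14, 7 members were called higher (7.11% of all genes) and 1 lower (4.91%), with a median log2 change of 0.26 against 0.00. These were mostly genes of low level. Elovl4 rose from 4.71, 5.41, 5.95 and 5.25 to 12.3, 16.8, 12.9 and 11.4 CPM (log2 change 1.324 ± 0.16, adjusted p = 4.44e-07), and Acsbg1, an acyl-CoA synthetase of the bubblegum family, from 10.004, 9.37, 9.37 and 8.52 to 21.5, 20.8, 26.7 and 21.7 CPM (log2 change 1.28 ± 0.22, adjusted p = 4.05e-05). Acsbg1 then held 10.01, 15.1, 10.6 and 9.93 CPM at P24, so that P14 stood above both neighbouring stages in every library. The fall to P24 was short of the 2-fold minimum (log2 change -0.99 ± 0.21, adjusted p = 0.00432), though a fit with the replicate number as a block called it. Thrsp, Mlxipl, Lpin3, Acsl6 and Acacb were also called higher, with P14 means of 7.02 ± 4.50, 1.15 ± 0.510, 7.18 ± 2.06, 1.44 ± 0.476 and 8.77 ± 2.41 CPM. The call of Acsl6 was lost without P5 replicate 1 or 2 (1.41 and 1.42), and that of Acacb without P14 replicates 2 and 3 (0.99, adjusted p = 0.0529 in the edgeR test). Over the same step 5 of 8 white adipocyte markers (median log2 change 2.29), 2 of 3 brown adipocyte markers (2.51) and 2 of 3 perineurial markers (1.33) were called higher, and their part in these rises was not tested. Lpin2, another phosphatidate phosphatase, fell from 16.2, 15.01, 16.6 and 16.5 to 6.90, 7.97, 7.35 and 7.56 CPM (log2 change -1.11 ± 0.13, adjusted p = 3.55e-07).

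The span from E17 to P14, from immature Schwann cells to the height of myelin growth, held the main change. Of the 39 members, 23 were called higher (18.0% of all genes) and 2 lower (13.4%), and the median log2 change was 1.12 against 0.00 over all genes. All 23 had P14 libraries above all E17 libraries. Over the same span 5 of 7 Schwann cell markers were called higher (median log2 change 3.95) and 4 of 4 red blood cell markers lower (-2.05). The Schwann cell markers summed to 3715 to 4089 CPM at E17 and to 58245 to 73753 CPM at P14. The part of these cells in the changes was not tested. By role, 4 of 6 elongases, 4 of 6 acyl-CoA synthetases, 3 of 5 desaturases, 3 of 5 further elongation enzymes, 3 of 8 glycerolipid enzymes and 2 of 3 genes in each of the other groups were called higher. When library sizes were used without TMM scaling, 14 members were called higher and 4 lower, while the median of all genes moved to -0.48 and the share of higher calls among all calls fell from 57.3% to 31.2%.

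On the route from mitochondrial citrate to palmitate, Slc25a1, Acly, Acaca and Fasn were called higher at P14 than at E17 and Acacb was not, and without TMM scaling Acly was short of 2-fold (0.74). Slc25a1 rose from 24.9, 24.7, 28.9 and 27.7 CPM in the E17 libraries to 206, 241, 254 and 235 CPM at P14 (log2 change 3.14 ± 0.20, adjusted p = 2.27e-13). Acly held 216, 237, 232 and 233 CPM at E17 and 493, 557, 557 and 544 CPM at P14 (log2 change 1.23 ± 0.13, adjusted p = 5.81e-09). Acaca rose from 103 ± 1.08 CPM to 310.0, 301, 295 and 289 CPM in the 4 P14 libraries (log2 change 1.53 ± 0.09, adjusted p = 1.14e-13). Most of the rise in Acaca had taken place by P1, whereas Slc25a1 and Acly had P1 libraries of only 40.2 to 54.8 and 265 to 315 CPM. Fasn held 267, 327, 354 and 329 CPM at E17 and 787, 949, 1035 and 1033 CPM at P14 (log2 change 1.57 ± 0.25, adjusted p = 6.18e-06). Acacb, the carboxylase isoform tied to mitochondria, had 4.40 ± 0.643 and 8.77 ± 2.41 CPM (log2 change 0.99 ± 0.30) and missed the 2-fold minimum. Me1 held 42.8, 47.7, 43.7 and 47.9 CPM at E17 and 78.1, 79.6, 74.7 and 68.6 CPM at P14, also short of 2-fold (log2 change 0.73 ± 0.12, adjusted p = 9.41e-06).

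**Figure D3:**
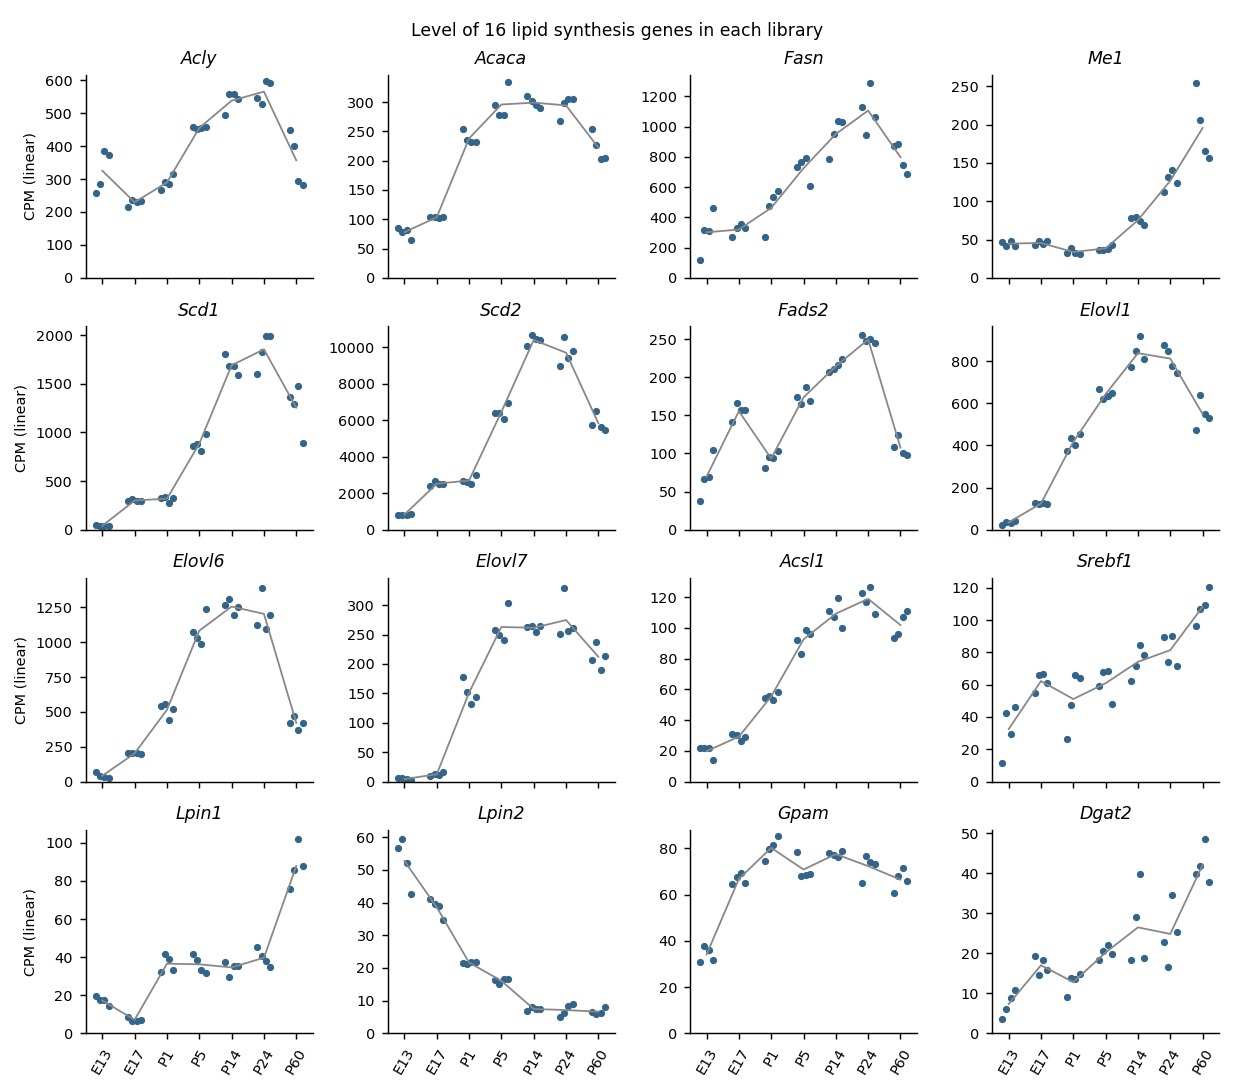
Level in CPM (vertical axes, linear and from 0) of 16 members in each library by stage, with lines through the stage means. Elovl7 and Lpin1 step up between E17 and P1, Scd1 and Scd2 between P1 and P14, and Me1 and Lpin1 are highest at P60, where Elovl6 and Fads2 are low again.

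Among enzymes that shape the chain, Scd1 reached 1803, 1687, 1678 and 1589 CPM at P14 from 299.7 ± 12.1 at E17 (log2 change 2.49 ± 0.13, adjusted p = 2.32e-15). Scd2 held 2398, 2662, 2517 and 2487 CPM at E17 and 10058, 10647, 10452 and 10419 CPM at P14 (log2 change 2.05 ± 0.09, adjusted p = 1.27e-16). The mean log2 ratio of Scd1 to Scd2 moved from -3.07 ± 0.020 to -2.62 ± 0.10 (SD) with no overlap between the stages, and the exact permutation test, whose smallest unadjusted p is 0.0286, gave an adjusted p of 0.0686 over 12 tests. Elovl1 reached 774, 850.4, 921 and 809 CPM (log2 change 2.75 ± 0.13), Elovl6 1271, 1307, 1196 and 1251 CPM (log2 change 2.64 ± 0.18) and Elovl7 263, 265, 254 and 264 CPM (log2 change 4.41 ± 0.21, adjusted p = 3.5e-16), which was the largest rise among members of at least 10 CPM. These 3 elongases and Scd1 were thus at least 5-fold higher at P14. Of the 5 shared partners of the elongation cycle, 3 were called higher, and none of them without TMM scaling (Hsd17b12 0.84, Tecr 0.63 and Hacd3 0.59). Hsd17b12, the ketoacyl reductase, rose from 104 ± 4.01 to 261 ± 10.05 CPM. Tecr, the enoyl reductase, rose from 160.4 ± 10.2 to 349 ± 26.2 CPM, and the dehydratase Hacd3 from 57.8 ± 3.51 to 122 ± 4.63 CPM. Hacd1 and Hacd2, with P14 means of 8.71 ± 1.19 and 24.96 ± 0.762 CPM, were not called.

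Fads1, Fads2, Elovl5 and Elovl2 are known for their work on polyunsaturated chains. Fads1, the Δ5 desaturase, rose just past 2-fold, from 255 ± 10.5 to 521 ± 18.5 CPM (log2 change 1.03 ± 0.09, adjusted p = 2.58e-10), but not without TMM scaling (0.54). Fads2 held 141, 166, 157 and 157 CPM at E17 and 206, 211, 216 and 224 CPM at P14 (log2 change 0.46 ± 0.16) and had dipped in between to 81.1, 94.9, 94.2 and 103 CPM at P1. Fads3 changed by 0.42 on the log2 scale. Neither was called, and the sign of both changes turned without TMM scaling. Elovl5, an elongase of C18 and C20 polyunsaturated chains, had 85.7 ± 6.21 and 57.4 ± 5.25 CPM (log2 change -0.58 ± 0.14, not called). Elovl2 fell from 4.34, 5.02, 3.92 and 5.40 to 0.511, 0.452, 0.163 and 0.266 CPM (log2 change -3.77 ± 0.40, adjusted p = 1.93e-08). At P60 none of its libraries held a count, so that its level at P14 was at least 6.90-fold that at P60, reckoned against 3 counts over the stage.

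Of the acyl-CoA synthetases, Acsl1 rose from 31.2, 30.5, 26.1 and 29.03 to 111, 107, 119 and 99.8 CPM (log2 change 1.90 ± 0.12, adjusted p = 1.07e-13), and Acsbg1 rose from 9.10 ± 0.786 to 22.7 ± 2.71 CPM. Acsl3 and Acsl6 were called higher by 1.29 and 2.10, the last by 2.77 without E17 replicate 3. Without TMM scaling Acsl3 (0.79) and Acsbg1 (0.83) were short of 2-fold. Acsl4 and Acsl5 had log2 changes of -0.54 and -0.44 and were not called. The mean log2 ratio of Acsl1 to Acsl4 was 0.066 ± 0.14 at E17 and 2.50 ± 0.11 at P14 (exact permutation test, adjusted p = 0.0686), with no overlap between the stages.

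Of the 8 enzymes of glycerolipid assembly, 3 were called higher and 1 lower, with a median log2 change of 0.61 against 0.00 over all genes. Gpam, the mitochondrial acyltransferase of the first step, held 64.8, 67.8, 69.5 and 65.2 CPM at E17 and 78.2, 77.03, 76.1 and 78.8 CPM at P14, a log2 change of 0.21 ± 0.08 that was not called and whose sign turned without TMM scaling. Agpat1, of the second step, had 75.5 ± 3.78 and 112 ± 12.6 CPM and was not called, while Agpat2 was called at the limit of the fold minimum, with 12.9 ± 1.20 and 26.002 ± 4.89 CPM, and lost the call without E17 replicate 1 or 2 or P14 replicate 2 or 3 (0.92 to 0.99), and without P14 replicates 2 and 3 together (0.77). The 3 lipins, which carry out the same step, diverged. Lpin1 rose to 37.6, 29.7, 35.6 and 35.6 CPM (log2 change 2.28 ± 0.14, adjusted p = 6.52e-14) and Lpin3 from 0.659 ± 0.255 to 7.18 ± 2.06 CPM, whereas Lpin2 fell from 41.1, 39.5, 38.99 and 34.7 to 6.90, 7.97, 7.35 and 7.56 CPM (log2 change -2.37 ± 0.14, adjusted p = 3.31e-14), the largest fall among members of at least 10 CPM. Per kilobase of exon, Lpin2 and Lpin1 had mean levels of 3.15 and 0.737 CPM per kb at E17, and of 0.609 and 3.58 CPM per kb at P14, so that their order was exchanged. Dgat1, one of the enzymes that make triacylglycerol, had 13.998 ± 0.270 and 15.7 ± 2.08 CPM. Its counterpart Dgat2 held 19.4, 14.7, 18.3 and 15.7 CPM at E17 and 18.4, 29.05, 39.7 and 18.8 CPM at P14, and neither was called. The high P14 values of Dgat2 came from replicates 2 and 3, in which the brown adipocyte marker Ucp1 stood at 30.5 and 36.9 CPM, against 2.97 and 0.380 CPM in the other 2, and its part in Dgat2 was not tested.

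Of the regulators, Srebf1 showed no called change in this span. It held 54.9, 66.1, 66.7 and 61.4 CPM at E17 and 62.3, 71.8, 84.3 and 78.4 CPM at P14, a log2 change of 0.25 ± 0.26 with overlapping libraries (adjusted p = 0.431) whose sign turned without TMM scaling. Mlxipl was nearly silent at E17, with 0.165, 0.264, 0.0776 and 0.0628 CPM, and held 1.18, 1.30, 1.67 and 0.456 CPM at P14. Thrsp had 2 counts over the 4 E17 libraries and 595 over the P14 libraries, a ratio of 266 with a 95% interval of 73.4 to 2204 for counting error alone. Over the same span 7 of 8 white adipocyte markers (median log2 change 6.89) and all 3 brown adipocyte markers tested (median 4.20) were called higher. Adipoq held 0.0550, 0, 0 and 0.126 CPM at E17 and 12.2, 3.16, 7.80 and 0.456 CPM at P14. The white adipocyte markers together summed to 60.3 to 81.5 CPM at E17, of which Fabp4, a gene that endothelial cells express too, made up 55.3 to 76.6 CPM, and to 29.97 to 142 CPM at P14. The part of fat cells in the rises of Thrsp and Mlxipl was not tested.

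**Figure D4:**
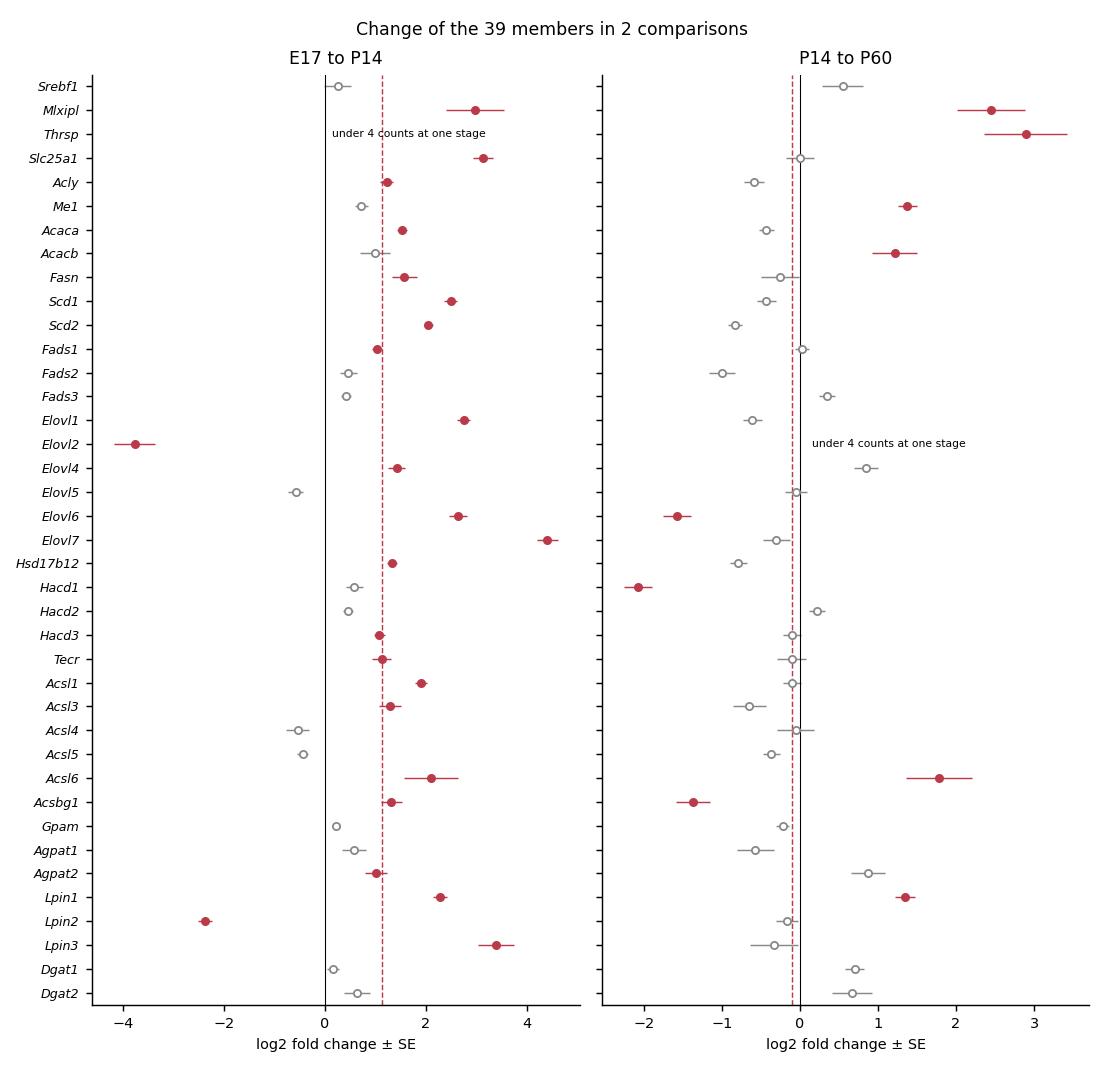
Log2 fold change with its standard error for each of the 39 members from E17 to P14 and from P14 to P60, filled where called and open where not, with a dashed line at the median of the members. The median lies at 1.12 on the left and at -0.11 on the right, and genes with under 4 counts at a stage carry no point.

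Between P14 and P24 no member was called in either direction in the edgeR test (1.51% of all genes higher and 1.14% lower), and the median log2 change was 0.13 against -0.0047. At an unadjusted p under 0.05, 8 members differed, as did 16.3% of all genes. DESeq2 called 0 and limma-voom 4. Me1 showed a change below the fold minimum, from 78.1, 79.6, 74.7 and 68.6 to 112, 131, 141 and 123 CPM (log2 change 0.75 ± 0.12, adjusted p = 0.000153), with no overlap. Fasn, Acly and Scd1 had P24 libraries of 947 to 1286, 527 to 598 and 1605 to 1992 CPM. P24 replicate 2 bore on the count of calls, which was 3 without that library.

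Between P24 and P60, 4 members were called higher (2.55% of all genes) and 4 lower (3.41%), with a median log2 change of -0.24 against -0.01. Elovl6 fell furthest among members of at least 10 CPM, from 1127, 1392, 1097 and 1199 to 421, 472, 371 and 419 CPM (log2 change -1.52 ± 0.18, adjusted p = 5.35e-07). Fads2 fell from 256, 247, 251 and 244 to 108, 124, 100.4 and 98.1 CPM (log2 change -1.21 ± 0.17, adjusted p = 6.25e-06), back below its E17 level. Acsl3 fell from 187 ± 18.7 to 93.04 ± 10.9 CPM, at the fold minimum, and Hacd1 from 7.51 ± 0.301 to 2.06 ± 0.546 CPM. Falls short of 2-fold were seen in Scd2 (-0.73), Hsd17b12 (-0.91) and Acly (-0.66), each with an adjusted p under 0.05 and no overlap between stages, while Fasn, at -0.47, had an adjusted p of 0.22. Lpin1 rose from 45.5, 40.5, 38.2 and 34.6 to 75.7, 85.8, 102 and 88.03 CPM (log2 change 1.15 ± 0.13, adjusted p = 2.59e-07). Thrsp, Mlxipl and Acsl6 were called higher by 1.71, 1.56 and 1.20. The call of Acsl6 was lost without any 1 of the 8 libraries, that of Thrsp without P24 replicate 1 or 4 or P60 replicate 1 (1.61, 1.67 and 1.55) and also with DESeq2 (1.73) and in a fit of the compared stages only (1.71), that of Mlxipl without P60 replicate 4 (1.35), and that of Acsl3, at -0.95 to -0.99, without P24 replicate 2, 3 or 4 or P60 replicate 3 or 4. Without P24 replicate 3 the change of Thrsp was 2.44, and without P60 replicate 4 there were 5 calls.

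Over the longer step from P14 to P60, 6 members were called higher (7.10% of all genes) and 4 lower (5.81%), with a median log2 change of -0.11 against -0.02. Fasn, Scd1, Scd2, Acaca and Elovl1 had mean levels at P60 between those of E17 and P14, whereas Me1, Srebf1, Fads1 and Slc25a1 did not. Fasn held 872, 886, 747 and 686 CPM at P60 (log2 change -0.25 ± 0.25, adjusted p = 0.488), Scd1 1365, 1287, 1472 and 894 CPM (-0.43) and Scd2 5759, 6479, 5633 and 5453 CPM (-0.83). Acaca and Elovl1 stood at 222 ± 23.8 and 549 ± 68.9 CPM. None of the 5 was called, all P60 values of each were above its E17 values, and replicate 4 of P60 was the lowest for Scd1. Acly varied at P60, with 449.6, 400.2, 295 and 282 CPM, and so did Me1, with 254, 206, 165 and 157 CPM, both higher in replicates 1 and 2 than in 3 and 4. Which of these libraries came from which sex was not used here. Me1 was called higher (log2 change 1.38 ± 0.12, adjusted p = 1.03e-09).

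The falls from P14 to P60 were those of Elovl6 (log2 change -1.58 ± 0.18, adjusted p = 9.19e-08), Acsbg1 (-1.37), Hacd1 (-2.07) and Elovl2. Elovl6 alone among the abundant elongases passed the minimum, since Elovl1 and Elovl7 had P60 libraries of 475 to 641 and 189 to 238 CPM. The dehydratases parted: the mean log2 ratio of Hacd1 to Hacd2 was -1.52 ± 0.17 at P14 and -3.79 ± 0.46 at P60, with no overlap (exact permutation test, adjusted p = 0.0686). Hacd2 libraries held 27.6 to 32.2 CPM at P60. Fads2, at -0.99, was just short of the fold minimum. Over this step 0 of 7 Schwann cell markers were called (median log2 change -0.38). Their sum was 58245 to 73753 CPM at P14 and 35136 to 47326 CPM at P60. The part of Schwann cells in these falls was not tested.

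Lpin1 rose from 37.6, 29.7, 35.6 and 35.6 to 75.7, 85.8, 102 and 88.03 CPM (log2 change 1.34 ± 0.13, adjusted p = 5.04e-09). Acacb and Acsl6 were called higher, by 1.22 and 1.78. The mean log2 ratio of Acaca to Acacb fell from 5.12 ± 0.38 to 3.44 ± 0.22, and that of Agpat2 to Agpat1 rose from -2.12 ± 0.27 to -0.66 ± 0.29, both with no overlap and an adjusted p of 0.0686 in the exact permutation test. The ratio of Dgat2 to Dgat1 moved by 0.037 (adjusted p = 0.886). None of the 12 tests of ratios passed after adjustment. Their smallest p, with 4 libraries against 4, is 0.0286, so stages without overlap did not pass either. No absence of change can be read from this. Dgat1 had 25.6 ± 3.405 CPM and Dgat2 39.9, 41.9, 48.6 and 37.9 CPM at P60, with log2 changes of 0.70 and 0.67 that were not called. Srebf1 held 96.4, 107, 109.6 and 121 CPM, above every P14 library (log2 change 0.55 ± 0.26, adjusted p = 0.128). Elovl4 stood at 24.03 ± 1.55 CPM.

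The largest rises from P14 to P60 were those of Thrsp and Mlxipl. Over the same step 7 of 8 white adipocyte markers were called higher (median log2 change 2.76). Of 3 brown adipocyte markers, 1 was called higher and 2 lower (median -1.90). Thrsp held 5.06, 10.5, 10.99 and 1.60 CPM at P14, 12.2, 1.94, 34.7 and 14.5 CPM at P24 and 68.6, 40.5, 58.4 and 40.5 CPM at P60 (log2 change from P14 to P60 2.89 ± 0.53, adjusted p = 0.000119). Mlxipl held 1.18, 1.30, 1.67 and 0.456, 2.05, 0.628, 3.31 and 2.45 and 7.53, 3.34, 5.35 and 8.85 CPM at the same stages (2.45, adjusted p = 9.23e-05). In both genes P14 replicate 4 and P24 replicate 2 were the lowest of their stage. The 8 white adipocyte markers measured summed to 29.97 to 142 CPM over the P14 libraries, 21.3 to 389.8 at P24 and 257 to 682 at P60, and the lowest library of P14 and of P24 was again replicate 4 and replicate 2. P24 replicate 2 was also the lowest of its stage in perineurial markers (518 CPM against 760 to 785), endothelial markers (172 against 236 to 267) and macrophage markers (123 against 177 to 206), while P14 replicate 4 was not the lowest of its stage in these 3 lists. In these 2 libraries Adipoq stood at 0.456 and 0.785 CPM and Lep at 0, whereas Adipoq reached 24.4, 19.2, 47.6 and 59.5 CPM at P60. Thrsp, Mlxipl, Acacb and Dgat2 were the 4 members that stood under 0.7 of the mean of the other 3 libraries of the stage in both, and over all 39 members the median of that ratio was 0.984 in P14 replicate 4 and 1.02 in P24 replicate 2. Me1 and Lpin1 stood at 131 and 40.5 CPM in P24 replicate 2, within the range of the other libraries of that stage. In P14 replicate 4, Lpin1 stood at 35.6 CPM, again within that range, whereas Me1, at 68.6 CPM, was the lowest of its stage. Without both libraries the log2 changes from P14 to P60 were 2.55 for Thrsp, 2.17 for Mlxipl, 1.09 for Acacb, 1.33 for Me1 and 1.35 for Lpin1, all still called. Without P14 replicates 2 and 3, the libraries with the highest sums of brown adipocyte markers, the change of Thrsp was 3.98. The rise of Acsl6 from P14 to P60 was no longer called without those 2 libraries (log2 change 1.47, adjusted p = 0.0543 in the edgeR test). Perineurial markers, too, were higher at P60, where they summed to 989 to 1387 CPM, than at P14, where they summed to 452 to 551 CPM. Within P60 the white adipocyte markers summed to 311, 257, 505 and 682 CPM in replicates 1 to 4. Thrsp did not follow that order and was highest in replicate 1. Mlxipl was lowest in replicate 2 and highest in replicate 4, as the markers were. Within P14 the marker sum was highest in replicate 1, while Thrsp was higher in replicates 2 and 3. The part of fat and perineurial cells in these changes was not tested.

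**Figure D5:**
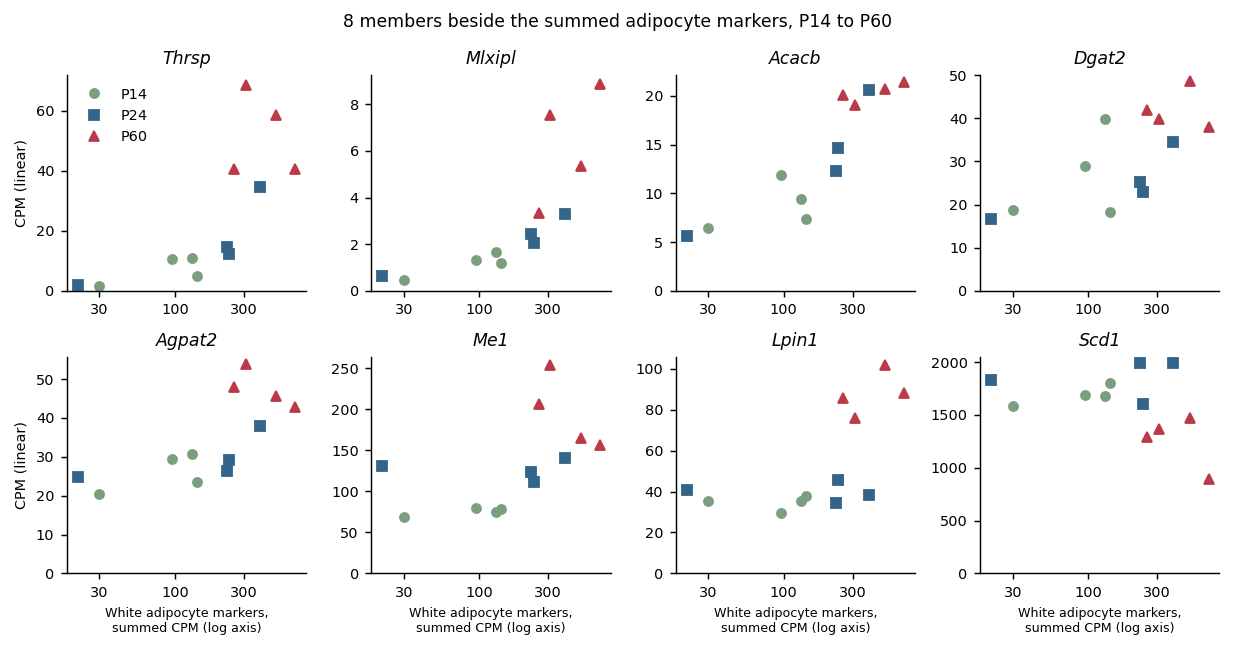
CPM of 8 members (vertical axes, linear and from 0) against the summed CPM of the white adipocyte markers (horizontal axes, logarithmic) in the 12 libraries of P14, P24 and P60, with 1 point per library. For Thrsp, Mlxipl and Acacb the 2 libraries with the lowest marker sums have the lowest values, while Me1, Lpin1 and Scd1 in those libraries lie near the others of their stage.

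Other genes of the pathway were read from the same fit, as a list of 76 genes of which 75 were tested. From E17 to P14, 32 were called higher and 1 lower, with a median log2 change of 0.58, beside 18.0% and 13.4% of all genes. Called higher were 9 of 16 genes of phospholipid head group synthesis (median 1.20), 6 of 7 of lipolysis and droplets (1.42), 5 of 11 of uptake and binding (0.28), 7 of 17 regulators (0.51), 2 of 7 other acyltransferases and phosphatidate enzymes (0.33), 2 of 9 of mitochondrial oxidation (0.20) and 1 of 8 of acetyl-CoA, malonyl-CoA and NADPH supply (0.23). Lipolysis and droplet genes are known from fat cells, whose markers rose over the same span as given above, and their part in this count was not tested. Pmp2, a fatty acid binding protein of peripheral myelin, rose most, from 7.52 ± 2.36 to 2103 ± 171 CPM, and it had already reached 679 ± 90.6 CPM at P1. From E13 to E17, 8 of the list were called higher and 7 lower (14.2% and 21.2% of all genes), with Chpt1, a cholinephosphotransferase, rising by 1.88 and Fabp7, a fatty acid binding protein of glial precursors, changing by -5.44. Between E17 and P1, 9 were called higher and 2 lower (6.31% and 5.41%). Between P1 and P5 the counts were 8 and 1 (4.05% and 1.79%), with Lpl, lipoprotein lipase, rising by 2.11. From P5 to P14 they were 10 and 1 (7.11% and 4.91%), with Nr1h3, which encodes the sterol receptor LXRα, rising by 2.62 and the fatty acid transporter Slc27a6 changing by -1.33. From P14 to P24, 1 was called higher and 2 lower (1.51% and 1.14%). From P24 to P60 they were 4 and 4 (2.55% and 3.41%), where the droplet coat gene Plin4 rose by 3.18 and Pmp2 fell from 2384 ± 368 to 434 ± 94.4 CPM. From P14 to P60, 8 were called higher and 6 lower (7.10% and 5.81%), led by Plin4 (4.28), which is itself a gene of fat cells, and by Slc27a6 (-2.62).

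Some of these values carry a limit from the counting, since neither its use of strand nor its treatment of reads with several matches was stated. Of all 50-base stretches of a member's transcripts, 30.4% for Acaca, 28.3% for Me1, 26.9% for Hacd1 and 9.23% for Acsl1 also occurred in another annotated gene, and 4.56% for Scd1 and 3.97% for Scd2, which share them mostly with each other. Exons of Elovl1 overlap Cdc20 on the opposite strand, those of Agpat1 overlap Egfl8, those of Agpat2 overlap Egfl7, those of Srebf1 overlap Rai1 and those of Acsl5 overlap Zdhhc6, while Acsl3 overlaps Utp14b on the same strand. In the GENCODE M21 annotation of GRCm38, Fasn lies at chr11:120805846-120824547 and Acly at chr11:100476353-100528000. Scd2 at chr19:44293674-44306864 and Scd1 at chr19:44394455-44407879 are neighbours. Elovl6 lies at chr3:129532355-129638495 and Lpin1 at chr12:16535669-16610966.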

How the data were processed

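RNA was extracted from frozen, ground nerve of the 28 samples. Per the methods, stranded TruSeq mRNA libraries were read single-end, and the authors aligned reads with STAR (2.6.1c per the submitters' processing notes) and counted them per gene with featureCounts. The deposited values are raw counts per gene, not normalized. The methods name the genome GRCh38.p10, a human build name, and the notes GRCm38.p5, while the identifiers are mouse. GENCODE M21 (GRCm38) supplied symbols and positions for 41519 of 41605 identifiers (99.79%). No 2 libraries held identical values.

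Genes were kept by filterByExpr with stage as group, scaled by TMM and fitted in 1 quasi-likelihood model over all stages in edgeR 4.0.16 (R 4.3.3), with Benjamini-Hochberg adjustment over 17700 genes and tests checked on simulated data. Calls needed an adjusted p under 0.05 and a fold change of at least 2. No differential test of the timeline is named in the methods. CPM used TMM-scaled library sizes, and the SE of a log2 change is its size over the square root of F. Log2 ratios of 2 members (log2 CPM, prior count 2) were compared by exact permutation tests (two-sided, 4 libraries against 4), adjusted over 12 tests. Bounds against 0 counts used 3 counts over the stage, and they and the counting interval (95%, exact) cover counting error only. At these totals precision is limited by counting only for genes of a few counts.

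The members and lists were chosen with earlier results of these data known. All members are named, with values of every library for 16 set members and for the largest called rise and fall of each comparison at 10 CPM or more. Of the other pathway genes the same rule named examples. The alternatives were other scalings and filters, DESeq2 1.42.0, limma-voom (limma 3.58.1), a fit of the compared stages only, no fold minimum and a replicate block. Others left out each library in turn, or 3 libraries taken as having GC-related deviations, for which no value is given here. Another prior count and another denominator were also used. Chosen after seeing the data were 2 sets of libraries left out for their adipocyte markers. The sex of each library was not used.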

Additional observations from a re-analysis of the deposited data

Results flagged for a closer look

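Each of 273 sets of 4 libraries (39 members at 7 stages) was searched for 1 library far from the other 3, and 17 were found, where chance alone marks about 5% of sets. At P1, replicate 1 was apart in Acsl3 (93.1 CPM against 64.2 to 68.8), Agpat1 (42.0 against 82.0 to 87.3) and Agpat2 (10.8 against 16.9 to 17.9), replicate 2 in Elovl2 (3.00 against 1.68 to 1.71) and replicate 3 in Scd1 (277 against 330 to 338). At P24, replicate 2, which also had the lowest adipocyte markers of that stage, was above the other 3 in Elovl7 (329.6 CPM against 251 to 261), Hsd17b12 (323 against 266 to 275), Hacd3 (149 against 117 to 119) and Acsbg1 (15.1 against 9.93 to 10.6), and replicate 1 was below them in Acsl3 (159 against 196). At E13, replicate 4 was apart in Acsl1 (13.7 CPM against 21.5 to 22.01) and Lpin3 (0.579 against 0.242 to 0.265). At P5, single libraries were apart in Acsl4 (18.7 CPM in replicate 3 against 21.04 to 21.5), Acsl6 (0.918 in replicate 4 against 0.292 to 0.385) and Gpam (78.4 in replicate 1 against 67.9 to 68.9). At P14 they were apart in Acsbg1 (26.7 CPM in replicate 3 against 20.8 to 21.7) and Agpat1 (93.7 in replicate 1 against 118 to 119.7).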

How the results depend on the processing

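The counts of members called from E13 to E17, E17 to P1, P1 to P5, P5 to P14, P24 to P60, E17 to P14 and P14 to P60 stayed within 1.5 times of the values given under every alternative run, apart from those named here. Without the fold minimum they were 31, 19, 20, 16, 19, 36 and 24, beside 62.2, 29.5, 17.6, 29.6, 16.1, 56.5 and 29.9% of all genes. From P14 to P24, where none was called, 1 was called without the low-count filter, 1 with the replicate block (Acsbg1, -1.02), 4 by limma-voom, 3 without the fold minimum (5.45% of all genes) and 1 without P14 replicate 4 and P24 replicate 2. Leaving out 1 library at a time gave 12 to 16, 6 to 7, 6 to 6, 7 to 10, 5 to 7, 24 to 26 and 10 to 11 calls in the 7 comparisons, and 0 to 3 from P14 to P24. Stages shared replicate numbers, but no label says what a number marks. Same-numbered libraries correlated at -0.20 to 0.57 (median 0.084) and the others at -0.47 to 0.26 (median -0.040), and 17 of 28 libraries were closest to their own number, a hint from the data and not the design. Same-numbered libraries were thus more alike in the median than the others, and a shared factor behind the numbers was not tested. With no label to name such a factor, the main fit did not pair the samples by number. With the replicate block the counts in the 7 comparisons were 16, 7, 6, 8, 7, 25 and 10, but the calls of Mlxipl from E13 to E17 (-1.36, edgeR adjusted p = 0.0552) and of Acsl6 from P24 to P60 (1.18, edgeR adjusted p = 0.0607) were lost. Library size alone turned the sign of 5 changes from E17 to P14 that had not been called, to -0.029 for Fads2, -0.071 for Fads3, -0.24 for Srebf1, -0.28 for Gpam and -0.33 for Dgat1, and it shifted the median of all genes by up to -0.48. It ended the calls of Acly, Elovl4, Fads1, Hsd17b12, Hacd3, Tecr, Acsl3, Acsbg1 and Agpat2 from E17 to P14, and those of Fads2, Lpin3 and Dgat2 from E13 to E17, Elovl6 from P1 to P5 and Acsl3 from P24 to P60. Limma-voom ended those of Hacd1, Hacd3, Lpin3 and Dgat2 from E13 to E17, Lpin3 from E17 to P1 and Agpat2 from E17 to P14, and DESeq2 those of Acsl3 and Thrsp from P24 to P60 and Agpat2 from E17 to P14. Dropping the low-count filter ended those of Mlxipl from E13 to E17, Lpin3 from E17 to P1 and Acsl6 from P24 to P60. DESeq2 size factors ended those of Acsl3 from P24 to P60 and Agpat2 from E17 to P14. A filter of at least 1 CPM in 4 libraries ended the same 2. The fit of the compared stages only ended those of Lpin3 from E17 to P1 and of Acsl3 and Thrsp from P24 to P60. No called change was reversed. The share of counts held at P14 was 1.60% without mitochondrial and haemoglobin genes in the total. Ratios of 2 members kept their direction and side of the threshold with the other prior count. The cause of these shifts was not tested.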
